A study of Mus musculus with 16 samples.

Results

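The enzymes described here desaturate and elongate fatty acids: the desaturase genes Scd1, Scd2, Fads1, Fads2 and Fads3 and the elongase genes Elovl1, Elovl3, Elovl5, Elovl6 and Elovl7. These 10 genes were named by symbol, and every entry of the deposited table whose RefSeq identifier maps to 1 of them was taken, which gave 21 of 130343 transcript entries. RNA came from subcutaneous fat of the inguinal region (SAT) and from mesenteric visceral fat (VAT) of wild-type male C57BL/6J mice. The 4 lean mice ate a normal laboratory diet, and the 4 obese mice ate a high-fat diet with 42% of its energy from fat and 0.2% cholesterol. Both groups were on their diet for 12 to 14 months from the age of 10 weeks. Every mouse gave 1 library of each tissue, so the 16 libraries form 4 groups of 4 (SAT lean, SAT obese, VAT lean and VAT obese). Both inguinal depots of a mouse were combined, visible vessels were cut away, and the RNA is that of the whole tissue with all of its cell types. For bulk tissue of this kind, fewer cells of a type and less RNA per cell cannot be told apart.

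A fat cell that makes fatty acids from sugar obtains palmitate from fatty acid synthase. Elovl6 lengthens palmitate to stearate, and the stearoyl-CoA desaturases Scd1 and Scd2 place the first double bond in both, which yields palmitoleate and oleate, the main monounsaturated acids of stored triglyceride and of membranes. Fads1, Fads2 and Elovl5 act mostly on polyunsaturated acids from the diet, and Elovl1, Elovl3 and Elovl7 extend very long chains. All of them work at the endoplasmic reticulum, where the desaturases take electrons from cytochrome b5 and the elongases share a reductase and dehydratase cycle.

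Of the 21 entries, 7 had a CPM (counts scaled to the library total) above 1 in at least 3 libraries and were tested, 1 for each of Scd1, Scd2, Fads2, Fads3, Elovl1, Elovl5 and Elovl6. Another 6 entries held no count in any library. Scd1, Scd2, Fads2 and Elovl6 have 1 entry each, so the value of the entry is that of the gene in this table. Elovl5 has 4 entries, and 97.2% of its counts lie on 1 of them. Elovl1 has 4 and Fads3 has 3, each with all of its counts on a single predicted entry, which for Fads3 is a noncoding one, and their low counts are not read as low expression. Fads1 received 14 counts in all, Elovl3 4 and Elovl7 16, and none of the 3 could be compared. They also have more than 1 entry each, and their low counts are likewise not read as low expression. In the deepest library 3 counts, the upper limit for a count of 0, equal 0.181 CPM, and in the shallowest they equal 2.39 CPM. These limits cover counting error only and are in CPM by the library total. On the scale of the levels below, 3 counts in the shallowest library equal 1.91 CPM.

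The Scd genes lie side by side on mouse chromosome 19 and resemble each other closely, so their transcripts were compared before their counts. In build GRCm39 (GENCODE vM39), Scd2 lies at chr19:44281613-44295303 on the plus strand and Scd1 at chr19:44382894-44399154 on the minus strand. Scd4 and Scd3, the other members of the cluster, are at chr19:44321531-44336783 and chr19:44191708-44232455. Scd1 shares 90.3% of its aligned coding bases with Scd2, 91.5% with Scd3 and 84.6% with Scd4. The 90-base coding stretch in which the 4 are most alike (coding bases 463 to 552 of Scd1) is given for Scd1 and Scd2, and the least alike (bases 778 to 867 of Scd1) for all 4, read from the genome, with capitals at each base that differs from Scd1. In the first, Scd2 differs at 1 base and Scd3 and Scd4 at none. In the second, Scd2 differs at 12 bases, Scd3 at 18 and Scd4 at 26.
Scd1, most alike: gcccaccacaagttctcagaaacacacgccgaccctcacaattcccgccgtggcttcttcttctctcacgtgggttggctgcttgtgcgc
Scd2, most alike: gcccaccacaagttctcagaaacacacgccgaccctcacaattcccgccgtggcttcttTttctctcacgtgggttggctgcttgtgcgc
Scd1, least alike: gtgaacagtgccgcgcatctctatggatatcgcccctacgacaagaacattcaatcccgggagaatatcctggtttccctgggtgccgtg
Scd2, least alike: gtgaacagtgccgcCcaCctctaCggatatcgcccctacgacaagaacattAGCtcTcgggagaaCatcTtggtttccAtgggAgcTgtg
Scd3, least alike: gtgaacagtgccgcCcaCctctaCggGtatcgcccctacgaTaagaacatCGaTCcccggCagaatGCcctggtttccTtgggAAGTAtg
Scd4, least alike: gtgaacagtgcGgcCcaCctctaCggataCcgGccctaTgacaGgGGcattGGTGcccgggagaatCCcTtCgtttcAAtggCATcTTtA

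Over the whole transcripts such identity was rare. Of all 75-base windows of the Scd1 transcript, 1.60% occur unchanged in Scd2, and of those of Scd2, 1.47% occur in Scd1. The longest identical run between these 2 transcripts is 147 bases. Of the Scd3 windows 3.25% occur in Scd1, and Scd1 held far more counts than Scd3, so low counts of Scd3 and Scd4 are uncertain where reads could be shared. The same limit holds for Scd2, which had group means of 1.10 to 1.93 counts per 100 counts on Scd1. The part of shared reads in the Scd2 counts was not tested.

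The 250 bases before the transcription start of Scd1 and Elovl6 are given next, because the responses of these genes to the diet are the main result below. They are on the gene's strand (GRCm39, start sites of the GENCODE vM39 canonical transcripts), and capitals mark a CCAAT box (CCAAT) or a nuclear receptor motif (AGGTCA) on either strand.
Scd1, chr19:44396341-44396590, minus strand: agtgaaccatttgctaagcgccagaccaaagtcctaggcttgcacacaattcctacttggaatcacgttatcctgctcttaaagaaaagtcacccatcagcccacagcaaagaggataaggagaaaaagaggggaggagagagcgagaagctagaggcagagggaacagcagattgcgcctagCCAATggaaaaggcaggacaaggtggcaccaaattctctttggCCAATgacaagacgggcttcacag
Elovl6, chr3:129325754-129326003, plus strand: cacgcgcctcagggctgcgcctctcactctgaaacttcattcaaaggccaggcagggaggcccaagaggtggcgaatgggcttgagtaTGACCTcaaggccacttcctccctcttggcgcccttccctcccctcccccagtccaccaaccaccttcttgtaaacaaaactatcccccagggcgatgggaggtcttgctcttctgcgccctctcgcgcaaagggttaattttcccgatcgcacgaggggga

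The stretch before Scd1 holds CCAAT starting at positions -67 and -24 from the start site. AGGTCA lies on the reverse strand at -162 in Elovl6. Among windows of 21757 protein-coding genes, from 250 bases before to 50 after the start, 39.9% hold CCAAT and 15.1% hold AGGTCA on either strand. A sterol response element (TCACCCCAC, or TCACNCCAC in a looser form that includes it) and an E-box (CACGTG) were also searched, occur in 0.529%, 1.34% and 7.82% of windows, and were not found in either of them. Matches of letters are a description of these windows and show no binding.

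Total counts lay between 4604460 and 11897722 in SAT lean, 10828758 and 16614407 in SAT obese, 1256082 and 15802634 in VAT lean, and 2247737 and 11615347 in VAT obese, with VAT lean 1 the shallowest library. Levels below are CPM scaled by TMM factors, and fold changes come from edgeR's quasi-likelihood test on the counts, with adjusted p (Benjamini-Hochberg) over 13288 entries. An entry is called at an adjusted p below 0.05. Labels give separate mice as replicates.

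With the high-fat diet, 5 of the 10 members rose in SAT, 3 could not be compared, and in VAT the Scd genes and Elovl6 moved apart. In SAT, 5 of 7 tested entries were upregulated in obese mice (Scd1, Scd2, Fads2, Elovl5 and Elovl6) and none was downregulated, where 11.0% of all tested entries were called in either direction and 6.21% were upregulated. In VAT, Scd1 and Scd2 were upregulated and Elovl6 was downregulated, 3 of 7 against 10.9% of all entries. A log2 fold change beyond 1.5, the limit of the study, was reached by 2 of the 5 in SAT (Scd1 and Scd2), as by 2.75% of all entries, and by none of the 3 in VAT, where 3.17% of all entries reached it. The median log2 fold change of the 7 was 0.95 in SAT and 0.23 in VAT, beside 0.01 and 0.02 over all entries tested. In SAT, all 4 obese libraries lay above all 4 lean libraries for each of the 5 genes, as they did for 9.61% of all entries. In VAT this held for Scd1 and Scd2 (8.35% of all entries), and for Elovl6 all 4 obese libraries lay below the lean ones (5.0% of all entries).

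**Figure D1:**
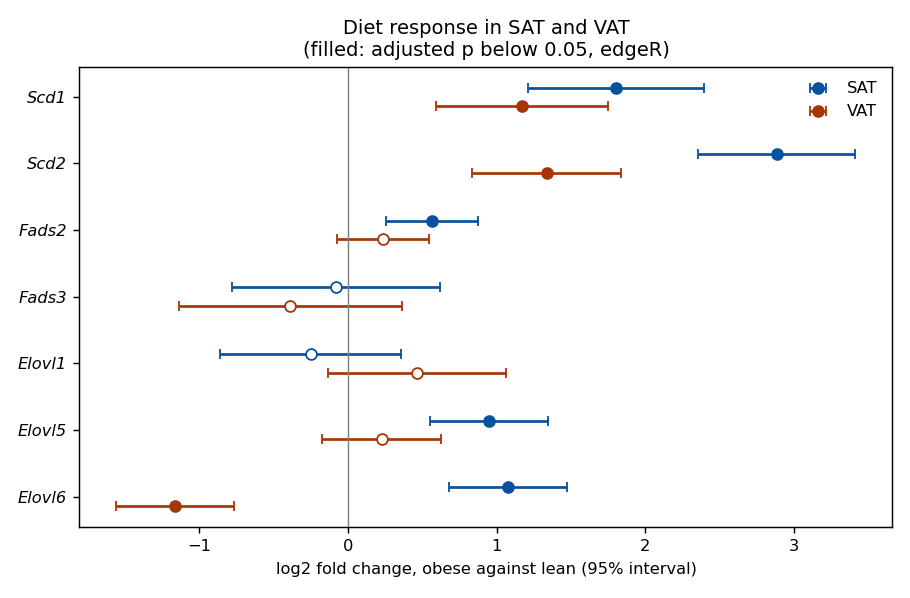
Log2 fold change of obese against lean mice with its 95% interval (x axis) for the 7 tested entries (y axis), in SAT (blue) and VAT (brown), filled where the adjusted p of edgeR was below 0.05. Scd1 and Scd2 lie to the right in both tissues, and Elovl6 lies at 1.08 in SAT and -1.16 in VAT.

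Scd1, the main stearoyl-CoA desaturase of adipose tissue and liver, was the most counted entry in 13 of 16 libraries. Its levels in SAT of lean mice were 88188, 143398, 64087 and 32020.2 CPM, and in SAT of obese mice 292005, 271415, 276067 and 303074 CPM. The lean libraries differed from each other much more than the obese ones, and the groups did not overlap. The mean rose from 81923 ± 46999.5 to 285640.1 ± 14588 CPM (SD, n = 4), a fold of 3.49 (log2 fold change 1.80, SE 0.28, adjusted p 0.000222).

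In VAT of lean mice the Scd1 levels were 64610.0, 86708, 79433 and 47283 CPM, and in VAT of obese mice 158050.3, 176469, 178847 and 113155 CPM. Obese mouse 4 had the lowest of the obese VAT levels and still lay above every lean library. Scd1 rose 2.25-fold in VAT (log2 fold change 1.17, SE 0.28, adjusted p 0.0074). The response in VAT minus that in SAT was -0.81 (95% interval -1.29 to -0.34) and was not called with an adjusted p of 0.0659. It was called in 6 of the 17 alternatives that were run, among them DESeq2 with an adjusted p of 0.0269 and the fits without lean mouse 1 at 0.0304 and lean mouse 2 at 0.0182, and the adjusted p ran from 1.1e-13 with no filter on low counts to 0.516 without the block for the mouse.

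Scd1 took a large part of the counts in the table. The handling of reads shared by transcripts is not given, so this is not read as a share of the RNA. The Scd1 share of all counts was 8.08% ± 4.57 in SAT lean, 24.4% ± 0.905 in SAT obese, 7.61% ± 1.79 in VAT lean and 16.8% ± 2.93 in VAT obese (SD, n = 4). In SAT of lean mice the share ran from 3.28% in mouse 4 to 14.0% in mouse 2. A transcript of this size lowers the CPM of every other gene, which TMM scaling is meant to offset. With Scd1 left out of the library sizes, an alternative chosen after seeing the data, the log2 fold changes of the other called members moved little, so that Elovl6 had 1.09 in SAT in place of 1.08 and -1.20 in VAT in place of -1.16. The Scd1 entry stayed in the fit, and TMM factors were computed again on the smaller library sizes. Such a change leaves the scaled sizes nearly the same, so this alternative cannot show what the Scd1 share does to other genes.

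**Figure D2:**
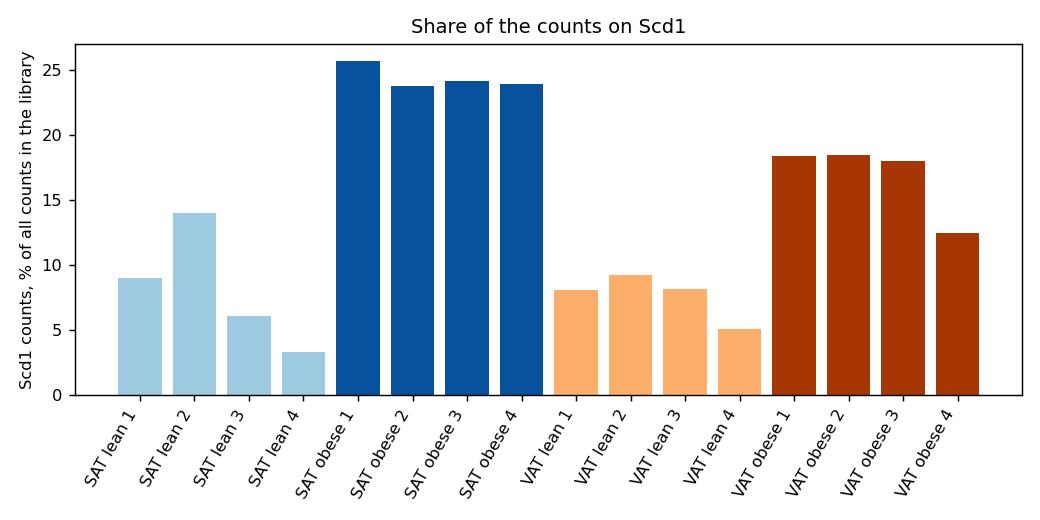
Counts on Scd1 as a percent of all counts (y axis, from 0) in each of the 16 libraries (x axis), 1 bar per library, coloured by group. The SAT obese libraries lie between 23.7% and 25.7%, and the SAT lean libraries between 3.28% and 14.0%.

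Scd2, the form of the enzyme that predominates in brain, showed the largest fold of the 7 in both tissues among the upregulated members. Its SAT levels were 1028, 733, 459 and 639 CPM in lean mice and 7430.2, 5506, 3700.5 and 4491 CPM in obese mice. The lowest obese level lay far above the highest lean one. The fold was 7.39 (log2 fold change 2.89, SE 0.25, adjusted p 1.8e-07), from a mean of 715 ± 238 to 5282 ± 1612 CPM (SD, n = 4).

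The VAT levels of Scd2 were 1489, 1216, 985 and 1056 CPM in lean mice and 4530.0, 2908, 2474 and 2063 CPM in obese mice, again without overlap. Scd2 rose 2.52-fold there (log2 fold change 1.34, SE 0.24, adjusted p 0.000732). The response was weaker in VAT than in SAT by 1.61 on the log2 scale (difference -1.61, 95% interval -1.93 to -1.29, adjusted p 1.28e-06). This difference between tissues, tested with the mouse as a block, was called for 2 of 7 members, Scd2 and Elovl6, where 2.17% of all entries were called and 1.29% had a lower response in VAT. For Scd2 the adjusted p had rank 7 among the 13288 entries, and for Elovl6 rank 2.

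Within a library, the ratio of both desaturases does not depend on how the library is scaled. Per 100 counts on Scd1 there were 1.10 ± 0.658 counts on Scd2 in SAT lean, 1.85 ± 0.551 in SAT obese, 1.80 ± 0.552 in VAT lean and 1.93 ± 0.650 in VAT obese (SD, n = 4). The ranges of the 4 groups overlapped, with the lowest ratio, 0.511, in SAT of lean mouse 2, the lean library with the highest share of Scd1. Per kilobase of transcript, Scd1 stood at 16306 ± 9355 CPM per kb in SAT lean and Scd2 at 131 ± 43.6. In SAT obese the levels per kilobase were 56855 ± 2904 for Scd1 and 968 ± 295 for Scd2.

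The other 2 genes of the cluster were detected at low levels. Scd3, best known from sebaceous glands, had 0.823, 0.140, 0.0950 and 1.27 CPM in SAT of lean mice and 16.2, 47.3, 14.0 and 0.923 CPM in SAT of obese mice. The groups overlapped through obese mouse 4, and the log2 fold change was 5.17 (SE 1.11, adjusted p 0.00385). Scd4, a form first described in heart, went from 0.468 ± 0.312 to 1.97 ± 0.394 CPM in SAT (SD, n = 4; log2 fold change 1.88, SE 0.44, adjusted p 0.00659). In SAT of lean mice 2 and 4 it had 0.280 and 0.212 CPM, below the level of 3 counts in those libraries. Neither was called in VAT, where Scd3 had an adjusted p of 0.387 and Scd4 of 0.36, nor for the difference between tissues. Of the other paralogs, Fads6 and Elovl4 were tested and not called for the diet in SAT or VAT. Between the tissues, Scd4 was higher in VAT in 4 of 4 lean mice (log2 fold change 1.56, adjusted p 0.0475), with 2.55 CPM in the shallow VAT library of lean mouse 1, near its limit of 3 counts. Fads6 was higher in VAT of obese mice (0.98, adjusted p 0.000158). Scd3 had 0, 9.36, 1.18 and 0.550 CPM in VAT of lean mice, with 1 library far above the others, and was higher than in SAT in 2 of 4 mice. Its log2 fold change of 2.26 had an adjusted p of 0.0486, and of 0.0532 with counts summed per gene, which is no call.

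Fads2, the desaturase at the entry of polyunsaturated acid synthesis, is at chr19:10038130-10079203 on the minus strand. Its SAT levels were 64.5, 48.5, 55.7 and 46.2 CPM in lean mice and 87.8, 79.7, 78.9 and 72.8 CPM in obese mice. The groups did not overlap, and Fads2 rose 1.48-fold (log2 fold change 0.57, SE 0.15, adjusted p 0.0156). The call was lost without lean mouse 2 (adjusted p 0.0543) and without lean mouse 4 (adjusted p 0.0516), the 2 highest values of its 18 alternatives, of which the lowest was 0.000951. In VAT the levels were 48.4, 91.3, 79.5 and 83.4 CPM in lean mice and 86.3, 96.6, 91.0 and 88.5 CPM in obese mice, with the shallow library of lean mouse 1 far below the rest. The VAT log2 fold change was 0.23 (95% interval -0.07 to 0.54, adjusted p 0.37), and the difference from SAT was -0.32 (95% interval -0.77 to 0.13, adjusted p 0.554).

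Fads3, a desaturase of sphingoid bases, lies at chr19:10018253-10037928, next to Fads2. Its 1 counted entry ranged from 2.68 to 8.65 CPM over the 16 libraries, and the groups overlapped in both tissues. The log2 fold change was -0.08 in SAT (95% interval -0.78 to 0.62, adjusted p 0.92) and -0.39 in VAT (95% interval -1.14 to 0.36, adjusted p 0.578). A pair of long noncoding RNAs, Gm59114 and Gm29917, lie on the other strand over exons of Fads3, and the strand setting of the counting is not given in the sources used here. Fads1 (chr19:10160167-10174241), the partner of Fads2 in making arachidonate, had 14 counts over all libraries on 1 of its 2 entries.

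**Figure D3:**
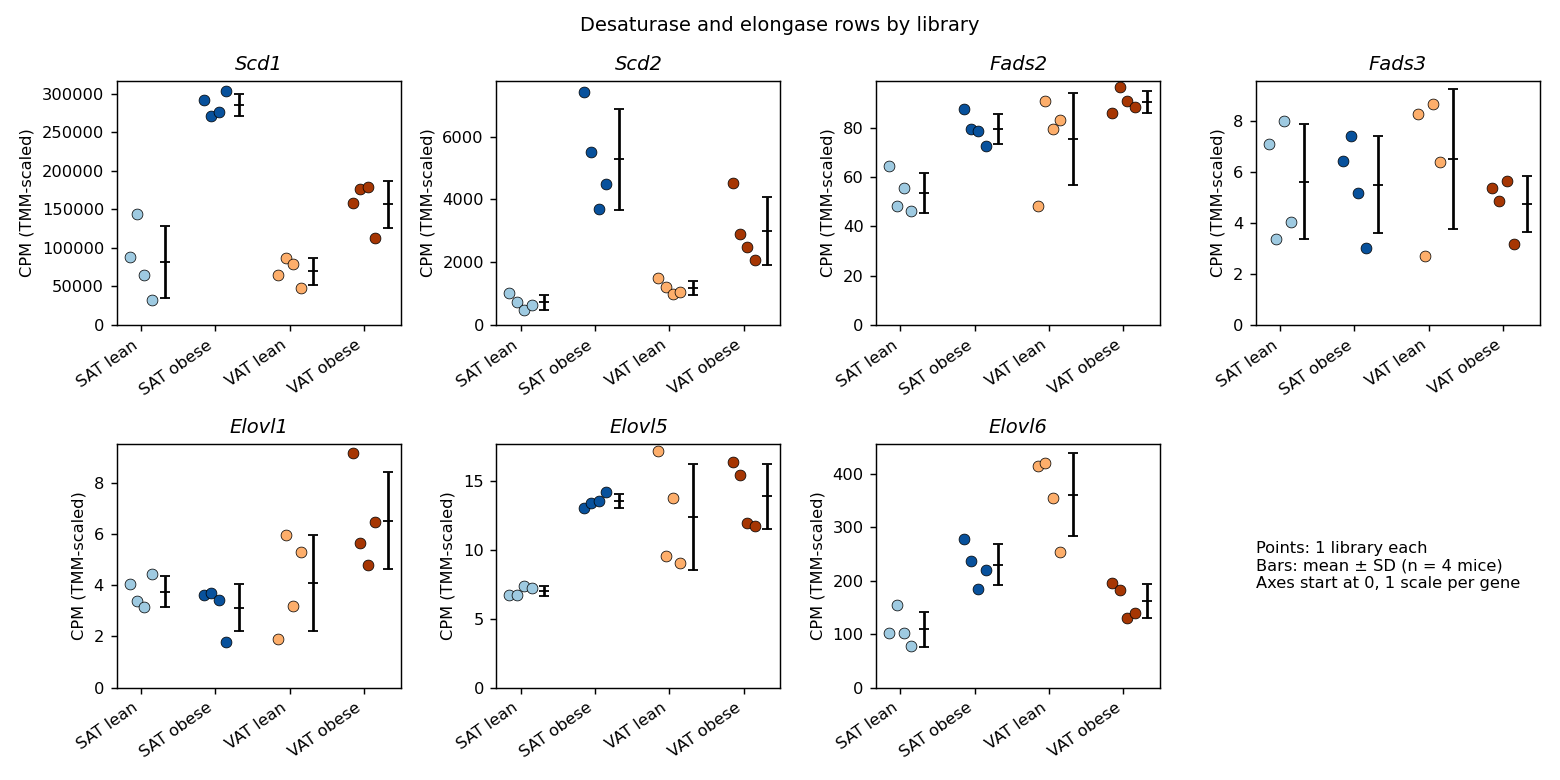
Level of the 7 tested entries in CPM after TMM scaling (y axes from 0, a scale for each gene) in each library of the 4 groups (x axis), with mean and SD of 4 mice as bars. Scd1, Scd2, Fads2, Elovl5 and Elovl6 are higher in every SAT obese library than in any SAT lean library, and Elovl6 is lower in every VAT obese library than in any VAT lean library.

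Elovl6, which turns palmitate into stearate and so feeds Scd1, responded in opposite directions in the 2 tissues. The gene is at chr3:129326004-129432144 on the plus strand, with the long noncoding RNA Gm35986 on the other strand over part of its exons. In SAT the levels were 103, 154, 102 and 77.6 CPM in lean mice and 279, 236, 185 and 221 CPM in obese mice. All obese libraries lay above the lean ones, and Elovl6 rose 2.11-fold (log2 fold change 1.08, SE 0.19, adjusted p 0.00066).

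In VAT the Elovl6 levels were 415, 421, 356 and 254 CPM in lean mice and 195, 184, 129.9 and 139 CPM in obese mice. Every obese library was below every lean one, and the level was 2.24-fold lower (log2 fold change -1.16, SE 0.19, adjusted p 0.000295). The diet responses of VAT and SAT differed by -2.26 (95% interval -2.58 to -1.94, adjusted p 6.18e-09). The increase in SAT, the decrease in VAT and this difference were called in every alternative that was run, 18 for either tissue and 17 for the difference. Among all entries, 11 (0.0828%) were called higher in obese SAT and lower in obese VAT, Elovl6 with them.

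The order of the group means of Elovl6 was VAT lean (361 ± 77.5 CPM), SAT obese (230.4 ± 38.8), VAT obese (162 ± 32.3) and SAT lean (109 ± 32.3) (SD, n = 4). Neighbours in this order overlapped: SAT obese reached 279 CPM where VAT lean began at 254, VAT obese reached 195 where SAT obese began at 185, and SAT lean reached 154 where VAT obese began at 129.9.

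Elovl5, an elongase of polyunsaturated acids, is at chr9:77818113-77891802 on the plus strand. Its main entry had 6.75, 6.73, 7.41 and 7.21 CPM in SAT of lean mice and 13.0, 13.4, 13.5 and 14.2 CPM in SAT of obese mice. The spread within each group was small, the groups were far apart, and Elovl5 rose 1.93-fold (log2 fold change 0.95, SE 0.19, adjusted p 0.00215). With the counts of all 4 entries summed the log2 fold change was 0.94 (adjusted p 0.00227), but the main entry holds 97.2% of that sum, so this is no separate support.

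In VAT, Elovl5 had 17.2, 9.54, 13.8 and 9.03 CPM in lean mice and 16.4, 15.4, 11.9 and 11.8 CPM in obese mice, so the groups overlapped (log2 fold change 0.23, 95% interval -0.17 to 0.63, adjusted p 0.532). The difference between the tissues was -0.75 (95% interval -1.32 to -0.17) and was not called (adjusted p 0.178).

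Elovl1, an elongase of saturated very long chains (chr4:118284346-118290150), ranged from 1.77 to 9.17 CPM on its counted entry. It was not called for the diet in SAT (log2 fold change -0.25, 95% interval -0.86 to 0.36, adjusted p 0.651) or in VAT (0.46, 95% interval -0.14 to 1.07, adjusted p 0.361). Cdc20, a protein-coding gene, lies on the other strand over exons of Elovl1. Elovl3 (chr19:46119917-46124133), the elongase known from brown fat and sebaceous glands, had 4 counts over its 2 entries, and Elovl7 (chr13:108350937-108423639) had 16 over 2.

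Each mouse gave both tissues, and the comparison of VAT with SAT within mice gives the order of the depots under each diet. In lean mice 4 of 7 members were higher in VAT (Elovl6, Scd2, Elovl5 and Fads2) and none was lower, where 14.8% of all entries were called and 7.98% were higher. In obese mice Scd1, Scd2 and Elovl6 were lower in VAT and Elovl1 was higher, 4 of 7 where 29.4% of all entries were called and 13.5% were lower. These comparisons share libraries with those of the diets, and their values are given as a second view of the same data.

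Elovl6 was 3.34-fold higher in VAT than in SAT of lean mice (log2 fold change 1.74, SE 0.11, adjusted p 1.35e-10) and 1.43-fold lower in obese mice (log2 fold change -0.52, SE 0.11, adjusted p 0.000895). Scd2 was 1.71-fold higher in VAT of lean mice (log2 fold change 0.77, SE 0.11, adjusted p 2.1e-05) and 1.78-fold lower in obese mice (log2 fold change -0.83, SE 0.11, adjusted p 4.58e-06). For both genes each of the 4 lean mice had its higher level in VAT and each of the 4 obese mice in SAT. Such a crossing, with both comparisons called, was found in 21 entries (0.158% of those tested).

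Scd1 was not called between the tissues of lean mice (log2 fold change -0.08, 95% interval -0.41 to 0.26, adjusted p 0.821), with the higher level in SAT in 2 mice and in VAT in 2. In obese mice it was 1.85-fold lower in VAT (log2 fold change -0.89, SE 0.16, adjusted p 0.000227), and no VAT library reached the SAT level of any obese mouse. Elovl5 was 1.69-fold higher in VAT of lean mice (log2 fold change 0.75, adjusted p 0.0141), a call lost without lean mouse 1 (adjusted p 0.0828) or lean mouse 3 (0.09), with 0.0105 the lowest of its 17 alternatives. Fads2 was 1.42-fold higher there (log2 fold change 0.51, adjusted p 0.0323), and lost its call without lean mouse 2, 3 or 4, with adjusted p of 0.235, 0.113 and 0.137 and a lowest value of 0.000288. In obese mice Elovl5 (0.01, 95% interval -0.38 to 0.39) and Fads2 (0.19, 95% interval -0.12 to 0.50) were not called. Elovl1 was 2.07-fold higher in VAT of obese mice (log2 fold change 1.05, adjusted p 0.00703), and was not called without obese mouse 4 (adjusted p 0.0857, with 0.0036 the lowest).

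**Figure D4:**
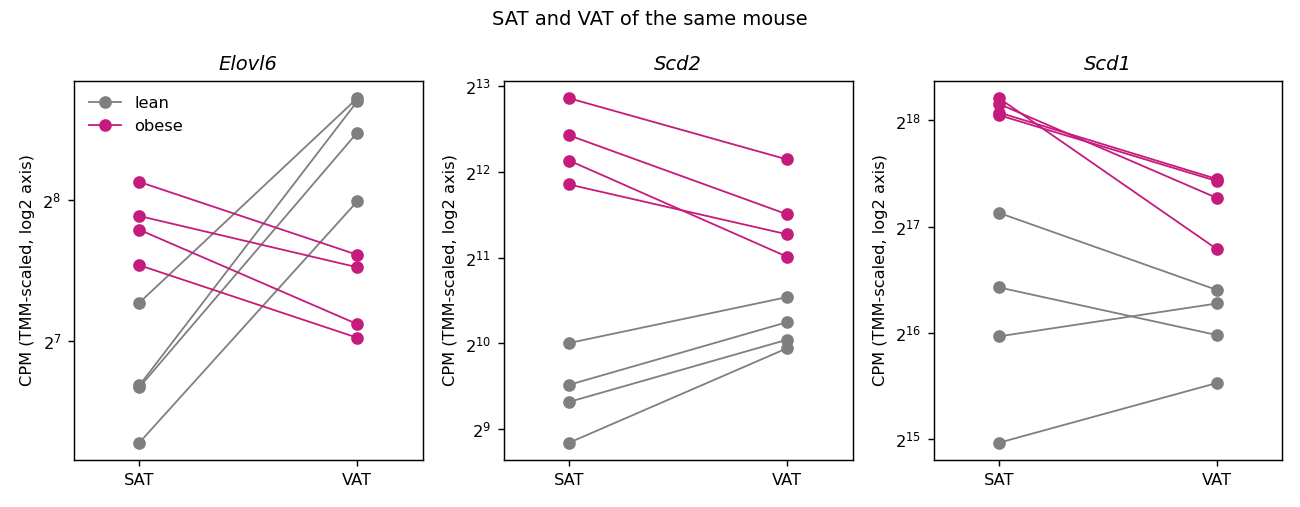
Level of Elovl6, Scd2 and Scd1 in CPM after TMM scaling (y axes, log2 scale) in SAT and VAT (x axis), with a line for each of the 4 lean (grey) and 4 obese (pink) mice. For Elovl6 and Scd2 every lean line rises and every obese line falls from SAT to VAT, while for Scd1 only the obese lines share a direction.

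Compared per kilobase of transcript, where levels of different genes can be set side by side, Scd1 far exceeded the other members with a single entry (Scd2, Elovl6 and Fads2) in each group. In VAT lean the level per kilobase was 13835 ± 3471 CPM per kb for Scd1, 218 ± 41.0 for Scd2, 58.9 ± 12.6 for Elovl6 and 23.3 ± 5.80 for Fads2 (SD, n = 4). In VAT obese Elovl6 stood at 26.4 ± 5.27 CPM per kb and Fads2 at 27.9 ± 1.37, less than 1 SD of Elovl6 apart, and in SAT lean they stood at 17.8 ± 5.26 and 16.6 ± 2.54.

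The other enzymes of the pathway were followed in lists of genes. Among 6 tested entries of the enzymes that complete the elongation cycle, 2 were upregulated in SAT (6.21% of all entries) and 1 was downregulated in VAT (4.08%). Hsd17b12, the ketoacyl reductase, rose from 432 ± 47.1 to 755 ± 79.8 CPM in SAT (SD, n = 4; log2 fold change 0.81, adjusted p 6.71e-05) and stood at 498 ± 65.3 and 449 ± 13.5 CPM in VAT, and its response differed between the tissues by -0.95 (adjusted p 0.000701). Tecr, the enoyl reductase of the last step, rose in SAT with a log2 fold change of 1.15 (adjusted p 5.7e-05) and had 0.48 in VAT (adjusted p 0.0569). Hacd2, a dehydratase, fell in VAT from 94.1 ± 9.72 to 55.5 ± 9.78 CPM (log2 fold change -0.77, adjusted p 0.000356). Hsd17b12, Tecr and Hacd2 were also the 3 that were lower in VAT than in SAT of obese mice (13.5% of all entries).

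Of 6 entries for the electron supply of the desaturases, 1 was called for the diet in SAT and none in VAT, where 11.0% and 10.9% of all entries were called. Cyb5b, a cytochrome b5 of the outer mitochondrial membrane, rose in SAT from 2002 ± 144 to 2942 ± 361 CPM (log2 fold change 0.56, adjusted p 0.0128), and stood at 1282 ± 116 and 1235 ± 302 CPM in VAT (SD, n = 4). Its response differed between the tissues by -0.63 (adjusted p 0.0368), and it was lower in VAT than in SAT in lean and in obese mice. Cyb5a, another cytochrome b5 of the list, went the other way in SAT, from 3.94 ± 1.12 to 1.76 ± 0.614 CPM, without overlap. It was called neither in SAT (log2 fold change -1.16, adjusted p 0.0578) nor in VAT (-1.03, adjusted p 0.139).

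Of 13 entries of regulators, 1 was upregulated and 1 downregulated in each tissue, a share near the 11.0% and 10.9% of all entries called in SAT and VAT. Insig1, the sterol-sensing protein that retains SREBP precursors and is itself a target of SREBP, had 830.3, 436, 625 and 722 CPM in SAT of lean mice and 2922, 2735, 1751 and 2826 CPM in SAT of obese mice. It rose there with a log2 fold change of 1.97 (adjusted p 1.66e-06). In VAT it rose by 0.86 (adjusted p 0.00622), from 542 ± 167 to 976 ± 57.3 CPM (SD, n = 4), and its responses differed by -1.08 (adjusted p 0.000214). Mlxipl, the gene of the sugar-responsive factor ChREBP, has 16 entries, and the 1 tested, a noncoding form, fell in SAT (log2 fold change -1.17, adjusted p 0.00669) and in VAT (log2 fold change -1.05, adjusted p 0.0287). Srebf1, the gene of SREBP-1, has 6 entries, of which 2 were tested and neither was called for the diet, and summed per gene its log2 fold change was 0.47 in SAT (adjusted p 0.419) and -0.49 in VAT (adjusted p 0.464). Summed per gene, Nr1h3, the gene of LXR alpha, was called in SAT (log2 fold change 0.78, adjusted p 0.0313), while neither of its 2 tested entries was. Between VAT and SAT of obese mice, entries of Mlx and Srebf2 were higher, and Insig1 and an entry of Pparg were lower. Of the 2 tested entries of Srebf1, 1 was lower there (-1.43, adjusted p 0.0470) and the other was not called (0.16, adjusted p 0.821), nor was the sum of all 6 (-0.58, adjusted p 0.2001).

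The fatty acid supply list holds the enzymes that make palmitate and its precursors. Of its 8 tested entries, 4 were upregulated in SAT (6.21% of all entries) and 5 were downregulated in VAT (4.08%), 7 had a lower response in VAT (1.29%), and 7 were higher in VAT than in SAT of lean mice (7.98%). Fasn, fatty acid synthase, had 84.2, 102, 69.5 and 55.7 CPM in SAT of lean mice and 128, 105, 64.6 and 62.0 in obese mice, with a log2 fold change of 0.21 (adjusted p 0.575). In VAT it went from 178, 183, 157 and 136 CPM in lean mice to 76.4, 82.6, 59.6 and 72.7 in obese mice, a log2 fold change of -1.17 (adjusted p 0.000582), without overlap. The responses of Fasn differed by -1.33 (adjusted p 0.000301). The median log2 fold change of the list was 0.70 in SAT and -1.01 in VAT, beside 0.01 and 0.02 over all entries. Of 5 entries of acyl-CoA synthetases, which activate fatty acids, 2 were upregulated in SAT (6.21% of all entries), none was called in VAT, and 2 had a lower response in VAT (1.29%).

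**Figure D5:**
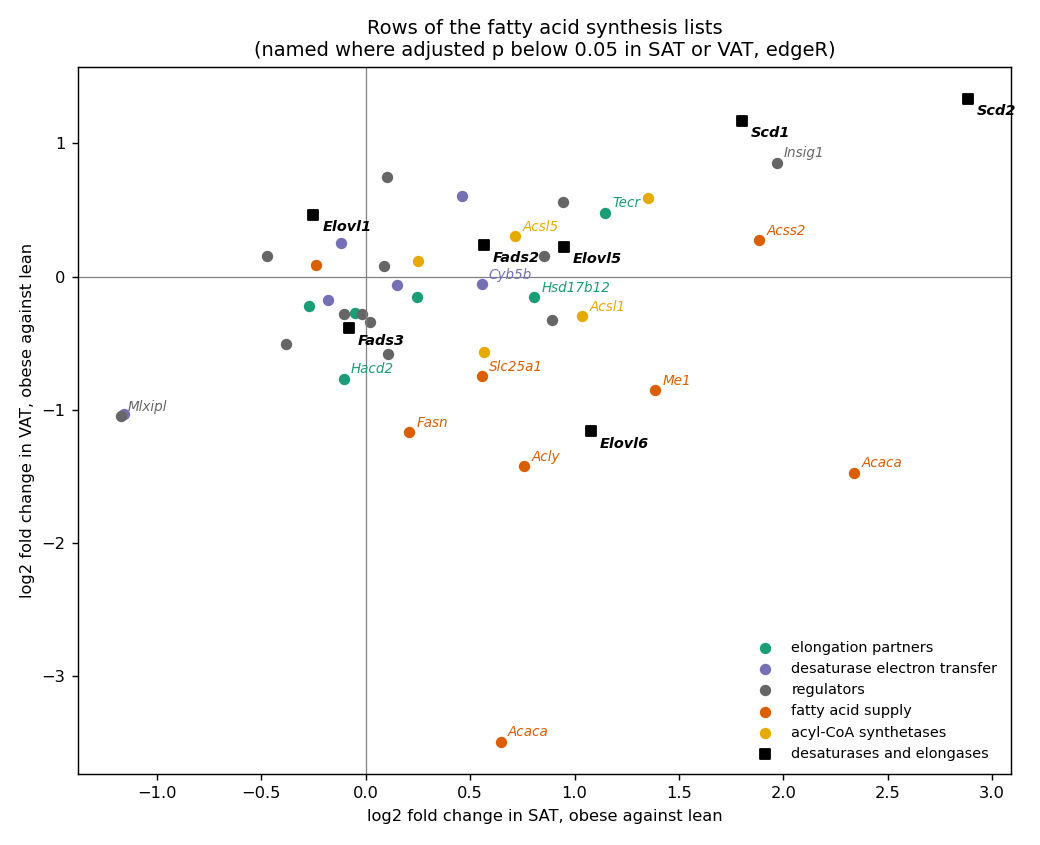
Log2 fold change of obese against lean mice in SAT (x axis) and in VAT (y axis) for every tested entry of 5 lists of the pathway (colours) and for the 7 members (black squares), named where edgeR's adjusted p was below 0.05 in either tissue; members are always named. Elovl6 lies at the lower right with Me1, Acly, Slc25a1 and Acaca, and Scd1, Scd2 and Insig1 lie at the upper right.

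The tissue was checked against markers of its cell types. The endothelial gene Pecam1 held no count and the macrophage gene Adgre1 had at most 0.330 CPM in any library, so a low marker sum in this table does not show that a cell type was absent. The 8 adipocyte genes were all detected in each group, with a summed level of 40846 to 57684 CPM in SAT lean, 37046 to 52035 in SAT obese, 20939.9 to 34502 in VAT lean and 15279.6 to 26086 in VAT obese. Of their 16 entries, 2 fell in SAT of obese mice, where 11.0% of all entries were called in either direction, and 7 fell in VAT (4.08% of all entries). In obese mice 11 were lower in VAT than in SAT (13.5% of all entries), beside the lower VAT levels of Elovl6, Scd1 and Scd2 there. The median log2 fold change of the 16 entries was -0.15 in SAT and -0.66 in VAT, beside 0.01 and 0.02 over all entries. The 7 macrophage genes summed to 681 to 905 CPM in SAT lean and 1153 to 1611 in SAT obese, and to 1116 to 1285 in VAT lean and 2320.3 to 3792 in VAT obese. Of 6 tested entries, 3 were upregulated in SAT (6.21% of all entries) and 6 in VAT (6.84%). All 6 were higher in VAT than in SAT of obese mice, where 29.4% of all entries were called in either direction. The part of these cells in the results of the members was not tested.

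Markers of other cell types differed between the depots. Mesothelial genes summed to at most 1.40 CPM in SAT and to 194 to 483 CPM in VAT. All 6 of their entries were higher in VAT in lean mice (7.98% of all entries) and in obese mice (29.4% called in either direction). B cell genes summed to 5.98 to 13.0 CPM in SAT and 38.4 to 452 CPM in VAT, where 3 of 5 entries rose in obese mice (6.84% of all entries). T cell genes summed to 2.33 to 9.69 CPM in SAT and 9.51 to 49.2 in VAT, with 2 of 3 upregulated in VAT. Endothelial genes summed to 161 to 328 CPM over all libraries, with 1 of 5 entries upregulated in SAT (6.21% of all entries).

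Skin glands and brown fat, in which Scd3 and Elovl3 are known to be made, and tissues next to the depots were looked at for the same reason. Sebaceous genes summed to 14.6 to 35.2 CPM in SAT lean and 30.7 to 43.0 in SAT obese, and to 14.0 to 39.0 CPM in VAT, with 1 of 3 tested entries upregulated in SAT (6.21% of all entries). Within this list Krt79 was at 7.29 to 25.4 CPM in SAT lean and 25.8 to 35.4 CPM in SAT obese, without overlap, in the tissue where Scd3 rose. Far2 of the same list was at 4.27 to 6.99 CPM in SAT lean and 4.19 to 6.76 in SAT obese, the median log2 fold change of the 3 tested entries was -0.16 in SAT, and the defining gene Awat2 had at most 0.424 CPM in any library. The part of such cells in the Scd3 counts was not tested. Keratinocyte genes summed to at most 3.63 CPM and skeletal muscle genes to at most 1.96 CPM, and neither of the 2 tested keratinocyte entries was called for the diet, while no skeletal muscle entry passed the filter to be tested. Genes of intestinal epithelium summed to 11.5 to 44.0 CPM, with Epcam at no more than 0.307 CPM in SAT and 9.78 in VAT, and none of 5 entries was called for the diet. Genes of exocrine pancreas summed to 71.1 to 208 CPM in SAT and 41.2 to 91.3 in VAT, with Cela1 at 31.8 to 208 CPM over all libraries and Cpa1 at no more than 3.18 CPM. Of 3 entries, 1 was upregulated in either tissue (6.21% of all entries in SAT and 6.84% in VAT). The beige and brown list summed to 35.6 to 97.5 CPM in SAT lean and 16.7 to 25.7 in SAT obese, and to 31.3 to 82.6 CPM in VAT, with 2 of 4 entries downregulated and 1 upregulated in SAT (11.0% of all entries called). The latter, named after its values were seen, was Ucp1, the uncoupling protein of brown fat, which had at most 0.412 CPM in SAT lean and 1.61 to 5.16 CPM in SAT obese. In VAT, 1 of the 4 beige and brown entries was upregulated and 1 downregulated (10.9% of all entries called), and Ucp1 had at most 0.881 CPM in lean mice and 6.49 to 15.4 CPM in obese mice.

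For the pattern of Elovl6 over all 16 libraries, the 5 most similar entries by Pearson correlation of log2 CPM were Pcdhga8 (0.92), 2 entries of Acaca (0.92 and 0.89), Acly (0.87) and Ano6 (0.87). Acaca is acetyl-CoA carboxylase and Acly is ATP citrate lyase, both of fatty acid synthesis. Levels of both Acaca entries were low, at most 13.2 ± 6.49 CPM in a group (VAT lean, SD, n = 4). Of the members, Elovl5 was nearest with a correlation of 0.58, followed by Fads2 (0.33), Scd2 (0.32) and Scd1 (0.18). These correlations are over libraries that share mice and the 4 group means, and describe the pattern only.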

How the data were processed

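RNA of SAT and VAT was sequenced as paired ends after poly(A) selection with a directional kit. The authors trimmed the reads with Trim Galore 0.6.6, aligned them with HISAT2 2.2.0 to GRCm39 and counted them on RefSeq transcripts with HTSeq 0.13.5; versions come from the submitters' processing notes. The strand setting and the handling of reads shared by transcripts are not given in the sources used here. The deposited table holds 16 columns of raw counts, which are not normalized, and 16 deposited columns of CPM, which equal the counts scaled to the library total. Symbols were found for 82.0% of entries.

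Here edgeR 4.0.16 (R 4.3.3; TMM, quasi-likelihood test, legacy=TRUE) was fitted to all 16 libraries, for the 13288 entries with a CPM above 1 in at least 3 libraries. Diets were compared by group means within a tissue. Tissues, and the difference of the diet response between them, were compared with the mouse as a block, as each mouse gave both. Deviations from the group mean correlated at -0.009 to 0.173 within the 8 mice and at -0.154 to 0.121 between 24 pairs of different mice. Calls use an adjusted p below 0.05. Libraries of a group differed by more than counting error in all 24 pairs. Positions and sequences come from GRCm39 and GENCODE vM39. One stretch of sequence is not reported here.

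The members and lists were chosen with earlier results of these data known. Named are all 10 members, with values in each library for those called for the diet or for its difference between tissues; Scd3, Scd4, Fasn, Srebf1 and Mlxipl; called genes of the lists of elongation partners, electron transfer, regulators and paralogs; and the 5 entries most similar to Elovl6. The remaining lists (fatty acid supply, acyl-CoA synthetases and 12 of cell types) are given as counts and sums, except that Me1, Slc25a1, Ucp1, Krt79, Far2, Awat2, Pecam1, Adgre1, Epcam, Cela1 and Cpa1 are named outside this rule, after their values were seen, and the plot of the pathway lists labels each called entry. Elovl4, Nr1h3 and Cyb5a, not called for the diet by entry, were likewise named after their values were seen. Alternatives were RLE size factors, no filter, filterByExpr, DESeq2 1.42.0, legacy=FALSE, limma voom 3.58.1, counts summed per gene, 1 tissue at a time, the block added or removed, each mouse left out, and Scd1 left out of the library sizes. The scripts were tested on simulated data. Matplotlib 3.10.9 drew the plots.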

Additional observations from a re-analysis of the deposited data

Results flagged for a closer look

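The responses of Elovl6 and Scd2 to the diet differed between the tissues by the test of the difference itself, by -2.26 for Elovl6 and by -1.61 for Scd2 on the log2 scale (VAT minus SAT). Among 36 groups of 4 libraries examined for a library far from the others, 2 stood out, and chance gives about 1 in 20. Elovl1 was lowest in SAT of obese mouse 4, at 1.77 CPM with the nearest library at 3.44. Scd3 was highest in VAT of lean mouse 2, at 9.36 CPM with the nearest at 1.18.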

How the results depend on the processing

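No value called as reported changed sign under an alternative that was run. The number of members called stayed within 1.5 times of the reported one except for VAT against SAT of lean mice, which gave 2 calls without lean mouse 3 (range 2 to 4 with a mouse left out). Counts over all entries moved more. With a mouse left out they ran from 936 to 1488 in SAT (lowest without lean mouse 2), from 834 to 1638 in VAT (lowest without obese mouse 4), from 135 to 404 for the difference between tissues (lowest without obese mouse 4, and 187 and 152 without lean mice 2 and 3), and from 2550 to 4225 for VAT against SAT in obese mice (lowest without obese mouse 4). The cause of these moves was not tested. DESeq2 called 468 entries for the difference. Without the block for the mouse, 128 entries were called for the difference in place of 289, and both members stayed called (Elovl6 -2.24, adjusted p 7.73e-05; Scd2 -1.55, adjusted p 0.0299). Replicate numbers pair no mice across diets, and a block by number gave 5 calls in SAT and 3 in VAT, as without it. Low total counts in VAT of lean mouse 1 and obese mouse 1 limit the members near 1 CPM.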
